A study of Mus musculus with 4 samples.

Results

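The neurotrophins and their receptors were followed across the cells of bleomycin-treated mouse lung through 6 of the 32286 genes counted. They are the ligands Bdnf and Ntf3, the Trk receptors Ntrk2 (TrkB) and Ntrk3 (TrkC), and the co-receptors Ngfr (p75NTR) and Sort1 (sortilin). Unique molecular identifiers (UMIs, each standing for 1 captured mRNA molecule) were summed per mouse within 7 lineages. A cell was placed in a lineage by at least 1 UMI of Ptprc (immune), Cdh5 (endothelial), Epcam (epithelial), Msln (mesothelial), Higd1b (pericyte) or Pdgfra (fibroblast), or at least 3 UMIs of Myh11 (smooth muscle), and cells that matched several lineages were dropped. Levels are given as CPM, the UMIs of a gene scaled by all UMIs of the same cells in the usual way.

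The study asked how loss of Tubb3, the gene of β-III tubulin, alters the fibrotic lung. Tubb3-/- mice were homozygous for a Tubb3-Cre knock-in that places Cre at the start of the Tubb3 coding sequence, so that Cre follows the Tubb3 promoter, and they were compared with WT littermates. There were 2 mice per genotype, 8 to 11 weeks old. All 4 mice received intratracheal bleomycin, a DNA-damaging drug that induces lung fibrosis, at 0.8 U/kg, and lungs were taken at day 14, so no untreated lung is part of these comparisons. Each lung gave 2 cell preparations. Whole lung cells were depleted of red blood cells with TER-119 and sorted as live cells. Mesenchymal cells were depleted of CD31+, CD45+, EpCAM+ and TER-119+ cells, and the pool was then enriched for mural cells by sorting on MCAM and PDGFRα, with as many MCAM+ PDGFRα- cells as MCAM- cells. The mice of a preparation carried separate oligonucleotide tags and were run as 1 pool.

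Of 32121 deposited cells, 30083 passed the limits on genes, mitochondrial share and doublets, and 18834 of these (62.6%) fell into a single lineage. Another 10091 cells matched several lineages and held 41.4% of the UMIs. Pericytes were the smallest lineage with 148 cells, 26 to 57 per mouse, against 6345 fibroblasts, 4955 immune, 3610 smooth muscle, 2751 endothelial, 589 mesothelial and 436 epithelial cells. Of 21 further marker genes, 20 were highest in their own lineage, and the exception was Dcn, which was higher in mesothelial cells than in fibroblasts. Tubb3 lay between 0.868 and 5.49 CPM in the 4 WT libraries and between 0.262 and 0.789 CPM in the 4 Tubb3-/- libraries, in the direction of the labels, and Cre was at 0 in every WT library and at most 0.0291 CPM in the Tubb3-/- libraries. The libraries held 41462258 to 95036340 UMIs, with medians of 9186 to 16299 UMIs per cell. Xist was at 17.6 to 22.6 CPM in mouse 1 of each genotype and at 632 to 649 CPM in mouse 2 of each genotype. Summed Y-linked genes were at 194 to 248 CPM in mouse 1 and at 6.94 to 13.7 CPM in mouse 2. Mouse 1 of each genotype was thus male and mouse 2 female, and the replicate number and the sex of the mice cannot be told apart. No cell barcode was shared between mice of the same pool.

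Neurotrophins are secreted as proneurotrophins, cleaved by furin-type proteases or plasmin, and bind receptor tyrosine kinases of the Trk family that signal through SHC, FRS2 and PLCγ to the MAPK, PI3K and calcium pathways. BDNF is the preferred ligand of TrkB and NT-3 (Ntf3) of TrkC, while p75NTR binds all neurotrophins and pairs with sortilin to receive the uncleaved forms. Outside the nervous system, BDNF is made by airway smooth muscle, and TrkB is used as a marker of an activated capillary endothelial state in the injured lung.

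In the GRCm38 assembly with the GENCODE vM21 annotation, Bdnf (ENSMUSG00000048482) lies at chr2:109674700-109727007 on the plus strand, Ntf3 (ENSMUSG00000049107) at chr6:126101412-126166910 on the minus strand, Ntrk2 (ENSMUSG00000055254) at chr13:58806569-59133970 on the plus strand, Ntrk3 (ENSMUSG00000059146) at chr7:78175959-78738012 on the minus strand, Ngfr (ENSMUSG00000000120) at chr11:95568818-95587735 on the minus strand and Sort1 (ENSMUSG00000068747) at chr3:108284082-108361511 on the plus strand. All are protein-coding. Ntf3 and Ngfr overlap no other annotated gene. Bdnf overlaps the antisense gene Gm45346, Sort1 overlaps 2 annotated genes, and the long Ntrk2 and Ntrk3 genes (327 and 562 kb) overlap 4 each. Among the overlapping genes with a level at hand, Gm9885, antisense to Ntrk3, was the only one above 2 CPM in any lineage, with 11.7 to 15.3 CPM in smooth muscle cells. No level was at hand for C630044B11Rik and Gm34245 (over Ntrk2), Gm44607 (over Ntrk3) and Gm43099 (over Sort1). The strand setting of the counting is not given in the sources used here.

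RefSeq promoter windows, 250 bases before to 50 after a transcription start, were at hand for 4 of the 6 genes (Bdnf, Ntf3, Ntrk2 and Ngfr), 11 windows in all, of which 7 belong to Bdnf, a gene known for its many alternative promoters and its induction by neuronal activity through a cyclic-AMP response element. The core of that element, TGACG, was searched on both strands. It occurred in 1 of the 11 windows and in 20.8% of all 32851 windows of this length. The window that held it, the third of Bdnf at chr2:109692186-109692485 (GRCm38.p6, plus strand), is printed because Bdnf was the only member called between genotypes in the main test below. The capitals mark the match, on the minus strand.
Bdnf window: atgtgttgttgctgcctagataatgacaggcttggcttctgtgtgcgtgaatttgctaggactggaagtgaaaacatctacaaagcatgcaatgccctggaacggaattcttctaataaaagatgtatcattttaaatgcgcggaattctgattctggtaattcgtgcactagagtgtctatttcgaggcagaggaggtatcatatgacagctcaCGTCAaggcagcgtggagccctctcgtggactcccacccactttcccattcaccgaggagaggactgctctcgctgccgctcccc

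Each gene had its own distribution over the lineages, and for Ntf3, Ntrk2 and Ntrk3 the leading lineage was above the next in 4 of 4 mice, for Bdnf and Sort1 in 3 of 4. With edgeR's quasi-likelihood test of each lineage against the mean of the others, 5 of the 6 genes had enough UMIs to be tested. They gave 13 higher and 10 lower calls in 35 tests. In smooth muscle cells 4 of the 5 (Bdnf, Ntf3, Ntrk3 and Sort1) were higher, against 29.9% of the 16405 genes tested, and 0 were lower (background 22.1%). In fibroblasts 4 (Bdnf, Ntf3, Ntrk2 and Sort1) were higher (background 31.4%) and 0 lower (17.8%). In endothelial cells Ntrk2 was higher (background 31.7%) and the other 4 were lower (25.5%). Smooth muscle cells and fibroblasts thus held 8 of the 13 higher calls. In immune cells Sort1 was higher (background 40.7%) and Bdnf, Ntf3 and Ntrk3 were lower (30.6%). In mesothelial cells Bdnf and Ntrk3 were higher (background 23.2%) and Sort1 was lower (19.7%). In epithelial cells Sort1 was higher (background 30.1%) and Ntrk3 lower (27.5%), and in pericytes 0 were higher (9.97%) and Sort1 was lower (16.3%). With shares of all genes this large, the counts are given as a description.

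**Figure D1:**
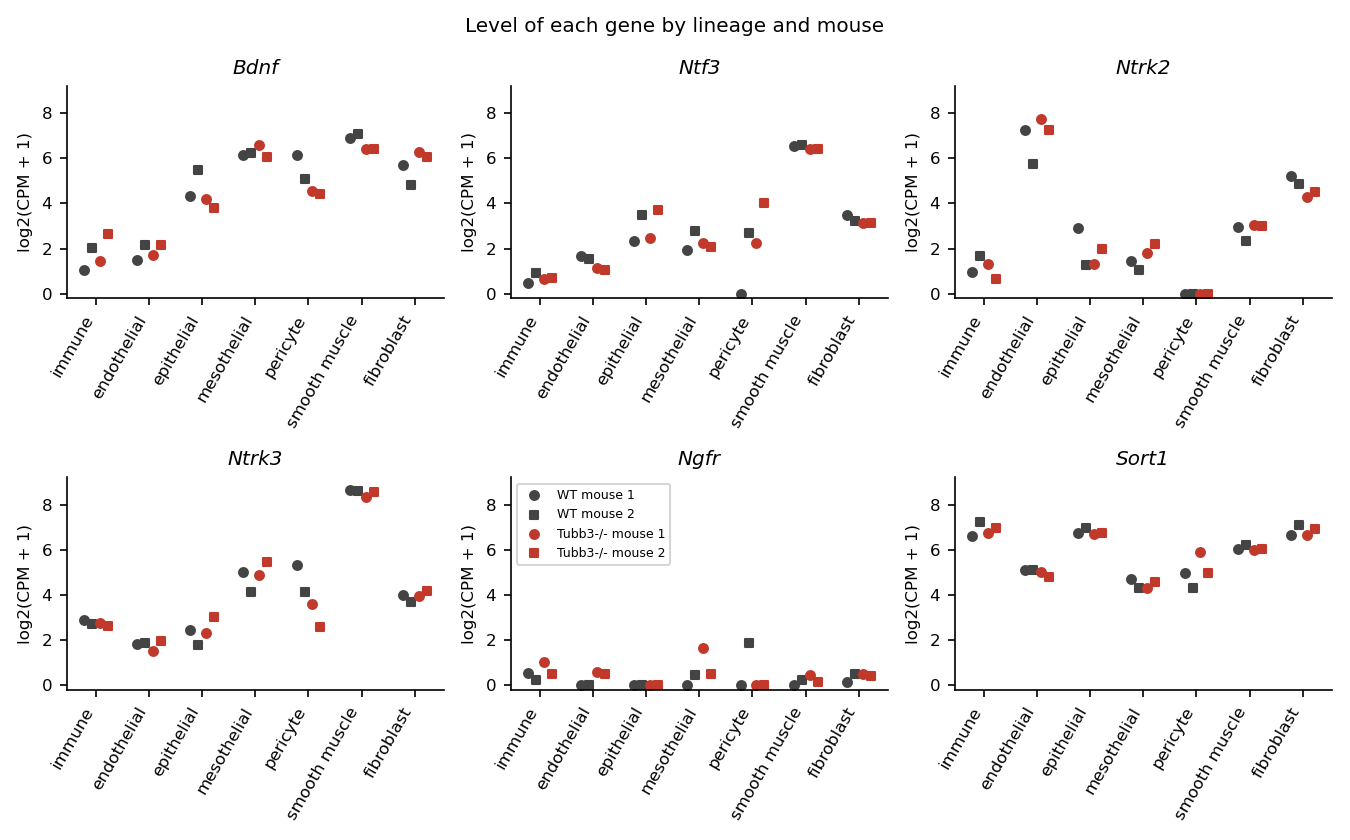
Level of each gene, as log2(CPM + 1), in the 7 lineages. Each point is 1 mouse, grey for WT and red for Tubb3-/-, circles for mouse 1 and squares for mouse 2. Ntf3 and Ntrk3 peak in smooth muscle cells, Ntrk2 in endothelial cells, and Bdnf spreads over smooth muscle, mesothelial cells and fibroblasts.

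Bdnf, the ligand of TrkB, was highest in smooth muscle cells, at 119 and 132 CPM in WT and at 84.5 and 83.2 CPM in Tubb3-/- lungs. In mesothelial cells it was at 70.4, 75.3, 94.2 and 65.9 CPM (WT mouse 1, WT mouse 2, Tubb3-/- mouse 1, Tubb3-/- mouse 2, the order used for 4 values from here on). In fibroblasts it was at 50.7, 27.4, 77.7 and 65.7 CPM. Neighbours in this order overlapped, while the lowest smooth muscle value lay above the highest fibroblast value, and neither smooth muscle against mesothelial cells (log2 fold 0.65 ± 0.31 SE, adjusted p = 0.0896) nor mesothelial cells against fibroblasts (0.19 ± 0.31, adjusted p = 0.660) passed the test. Pericytes (20.2 to 70.5 CPM) and epithelial cells (13.1 to 43.6 CPM) followed, also with overlapping ranges. Endothelial and immune cells were below, at no more than 3.53 and 5.22 CPM, and the step from epithelial to endothelial cells had a log2 fold of 3.06 ± 0.52 (adjusted p = 1.32e-05). Against the mean of the other lineages, Bdnf was higher in smooth muscle (log2 fold 2.70 ± 0.22), mesothelial cells (1.94 ± 0.26) and fibroblasts (1.72 ± 0.23). Fibroblasts held 32.1% of all Bdnf UMIs and smooth muscle cells 18.7%.

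Ntf3, the ligand of TrkC, was highest in smooth muscle cells, which held 45.3% of its UMIs. It stood there at 90.9, 95.6, 83.0 and 83.3 CPM, with a mean of 88.2 ± 6.13 CPM (SD, n = 4 mice). The next lineage, fibroblasts, was at 10.2, 8.25, 7.79 and 7.84 CPM, so that no mouse's fibroblasts came near any mouse's smooth muscle (log2 fold 3.30 ± 0.16, adjusted p = 2.55e-15). Epithelial cells (3.98 to 12.1 CPM) overlapped fibroblasts and did not differ from them by the test (adjusted p = 0.241). Mesothelial, endothelial and immune cells were below 6 CPM in every mouse, and pericytes held 6 UMIs of Ntf3 in all.

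Ntrk3, the receptor of NT-3, was highest in the same lineage as its ligand. Smooth muscle cells had 401, 387, 319 and 379 CPM, and 50.1% of all Ntrk3 UMIs lay in these cells. Mesothelial cells came next with 31.2, 16.6, 28.3 and 43.3 CPM, 3.87 ± 0.17 lower on the log2 scale (adjusted p = 3.56e-16). Pericytes (5.05 to 39.6 CPM) and fibroblasts (11.7 to 16.9 CPM) overlapped each other, and fibroblasts were above immune cells in all 4 mice (1.24 ± 0.16, adjusted p = 1.7e-07). Endothelial cells were lowest, at 1.83 to 2.93 CPM.

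Ntrk2, the receptor of BDNF, was highest in endothelial cells, where Bdnf was near its lowest. Endothelial cells had 153, 53.2, 213 and 151 CPM, with WT mouse 2 well below the other 3 mice. Fibroblasts had 36.1, 27.96, 18.3 and 22.0 CPM, below the endothelial cells of every mouse (log2 fold 2.16 ± 0.28, adjusted p = 3.42e-07). Smooth muscle cells had 4.002 to 7.17 CPM, 2.14 ± 0.31 lower than fibroblasts (adjusted p = 4.4e-06), and epithelial, mesothelial and immune cells had at most 6.47 CPM. No Ntrk2 UMI was seen in the pericytes of any mouse, which allows a level of up to 2.82 CPM over the 4 mice (3 UMIs, counting error only). Because a lineage at 0 makes a contrast against the mean of the others unstable, that contrast was also fitted without pericytes, an addition made after the data were seen. There Ntrk2 was higher in endothelial cells (4.82 ± 0.22) and fibroblasts (2.31 ± 0.25) and lower in immune (-2.91 ± 0.43), mesothelial (-2.26 ± 0.57) and epithelial cells (-1.69 ± 0.56).

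Sort1, a sorting receptor of the secretory and endocytic pathways that also carries proneurotrophins, was spread over several lineages. Immune cells (95.5, 150, 107 and 122 CPM), fibroblasts (100.3, 137, 101 and 121 CPM) and epithelial cells (107, 125, 103 and 107 CPM) overlapped, and neither the step from immune cells to fibroblasts (adjusted p = 0.359) nor that from fibroblasts to epithelial cells (adjusted p = 0.116) passed the test. In the fit without pericytes, epithelial cells were below immune cells (log2 fold 0.30 ± 0.10, adjusted p = 0.0111) and below fibroblasts (-0.27 ± 0.10, adjusted p = 0.0258). Smooth muscle cells lay below epithelial cells in every mouse, at 62.6 to 73.4 CPM (log2 fold 0.62 ± 0.13, adjusted p = 0.000198), and endothelial cells (26.6 to 33.2 CPM) and mesothelial cells (18.8 to 25.0 CPM) were lowest.

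Ngfr, the low-affinity receptor p75NTR, was at the edge of detection. In all, 181 UMIs were counted in 125 of the 30083 cells (0.416%), 27 and 39 of them in WT and 77 and 38 in Tubb3-/- lungs, and no lineage of any mouse exceeded 2.71 CPM. The share of cells with an Ngfr UMI was 0% in epithelial cells and 0.109% in endothelial cells, and similar in immune cells (0.464%), fibroblasts (0.426%) and mesothelial cells (0.509%). The UMIs were unevenly spread over cells, with 82 of the 181 in 26 cells that held 2 or more, and up to 9 in a cell.

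Some genes of the family outside the 6 were also highest in a single lineage. Ntf5 (NT-4), the other ligand of TrkB, was at 13.4 to 20.1 CPM in epithelial cells and at most 6.76 CPM elsewhere. Of the sortilin relatives, Sorcs2 was at 65.0 to 117 CPM in epithelial cells. Sorl1, at 108 to 161 CPM in immune cells, was not set apart in this way. In the thinned smooth muscle cells of the Ntrk3 split below, Sorl1 was at 101 to 142 CPM in Ntrk3-negative cells. In Ntrk3-positive cells it was at 115 to 163 CPM, and both ranges overlapped that of immune cells.

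The genes whose log2(CPM + 1) ran most like each member over the 28 sums (7 lineages in 4 mice, which share libraries) were named by Pearson's r as a description. For Ntrk3 they were Myocd, the master co-activator of smooth muscle genes (0.954), Lgr6 (0.945) and Sbspon (0.939). For Ntf3 they were E030013I19Rik (0.913), Atp2a2, a calcium pump of the sarcoplasmic reticulum (0.899), and Lrrtm3 (0.896). For Bdnf they were Stbd1 (0.949), Snhg18 (0.933) and Ltbp3 (0.933). For Ntrk2 they were Zfp979 (0.951), Colgalt2 (0.909) and Fas (0.903), and for Sort1 Rasgef1b (0.887), Prom1 (0.826) and Slc43a2 (0.822). Ngfr had no gene above 0.587.

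Between genotypes, Bdnf in smooth muscle cells was the only member called in the main setting of the edgeR test. It fell from 126 ± 8.96 CPM in WT to 83.9 ± 0.916 CPM in Tubb3-/- mice (SD, n = 2 mice each). The log2 fold change was -0.60 ± 0.09 (SE), and its Benjamini-Hochberg adjusted p in edgeR's quasi-likelihood test was 0.0318. This was 1 call in 26 member-lineage tests, and in smooth muscle 0.771% of the 13741 genes tested were called, 0.247% as lower. The 2 genotypes did not overlap, as was so in the lower direction for 17.3% of the genes tested in these cells. An exact permutation test over 4 mice cannot go below 0.33. In the mural-enriched pool alone the values were 122, 129, 87.3 and 81.5 CPM, with nearly the same fold change (-0.59) and an adjusted p of 0.0531. In the whole-cell pool, with far fewer smooth muscle cells (322 against 3288), they were 88.2, 154, 61.6 and 105 CPM and overlapped (-0.60, adjusted p = 0.710). Without Tubb3-/- mouse 2 the adjusted p was 0.136, and over all alternatives it ranged from 6e-06 to 0.710.

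**Figure D2:**
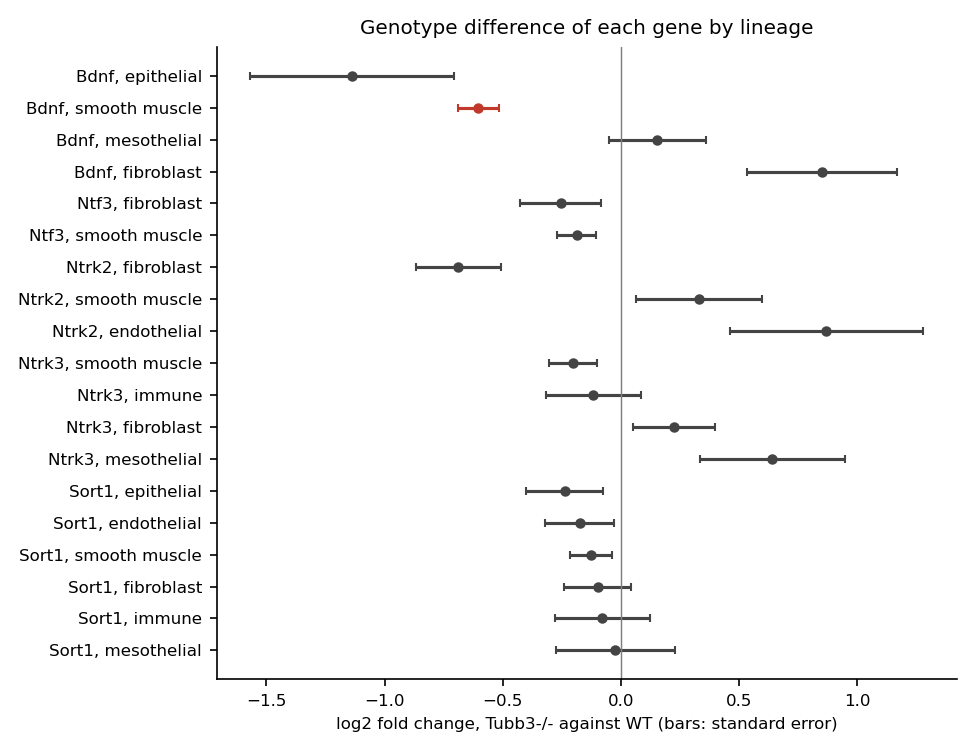
Log2 fold change of Tubb3-/- against WT for the 19 gene and lineage pairs with at least 20 UMIs in each mouse. Points are edgeR estimates, bars their standard errors, and red marks an adjusted p under 0.05, which only Bdnf in smooth muscle cells reached (-0.60).

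The share of smooth muscle cells with a Bdnf UMI moved the same way. After each cell was thinned to 2000 UMIs it was 16.6% and 18.2% in WT and 12.1% and 12.9% in Tubb3-/- mice (exact permutation p = 0.33, two-sided, the smallest possible), against 0% to 0.634% in endothelial cells, whose median depth was 7148 UMIs against 10878 in smooth muscle. In the same smooth muscle cells, 3 of 3 proliferation genes (Mki67, Top2a and Cdk1) rose in Tubb3-/- mice, their summed level being 7.35, 7.50, 48.9 and 29.0 CPM. The summed level of 4 haemoglobin genes was 38.2, 20.0, 543 and 13.7 CPM, and that of 6 Schwann cell genes 36.3, 47.0, 59.3 and 56.2 CPM. The part of these in the Bdnf difference was not tested. Of 17 smooth muscle genes, edgeR called 0 between genotypes in these cells. At an unadjusted p under 0.05 there were 2, a count without its share over all genes. DESeq2 called 1 of the 17 genes and 185 of all 13741 genes. The median log2 fold change of the 17 genes was -0.08 against 0.00398 over all genes tested.

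In fibroblasts the Bdnf values ran the other way. Both Tubb3-/- mice (77.7 and 65.7 CPM) lay above both WT mice (50.7 and 27.4 CPM), as was so in the higher direction for 25.6% of the genes tested there, and the log2 fold change of 0.85 ± 0.32 did not pass the test (adjusted p = 0.229, with 0.0624% of 16014 genes called). Without WT mouse 1 it was 1.44 and without WT mouse 2 it was 0.46, in fits that leave a single WT mouse. Both pools gave the order of the combined values, with 43.4, 28.4, 87.4 and 69.0 CPM in the whole-cell pool and 52.4, 27.2, 74.5 and 64.8 CPM in the mural-enriched pool. In epithelial cells Bdnf was at 18.9, 43.6, 17.4 and 13.1 CPM (-1.14 ± 0.43, adjusted p = 0.779, with 0% of 11277 genes called). This difference was -1.66 without WT mouse 1 and -0.37 without WT mouse 2. In mesothelial cells the genotypes overlapped (0.15 ± 0.21, adjusted p = 0.844). The genotype difference of Bdnf in smooth muscle minus that in fibroblasts was -1.45 ± 0.46 on the log2 scale, with an unadjusted p of 0.00480 and an adjusted p of 0.711, with 0.0117% of 17031 genes called.

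**Figure D3:**
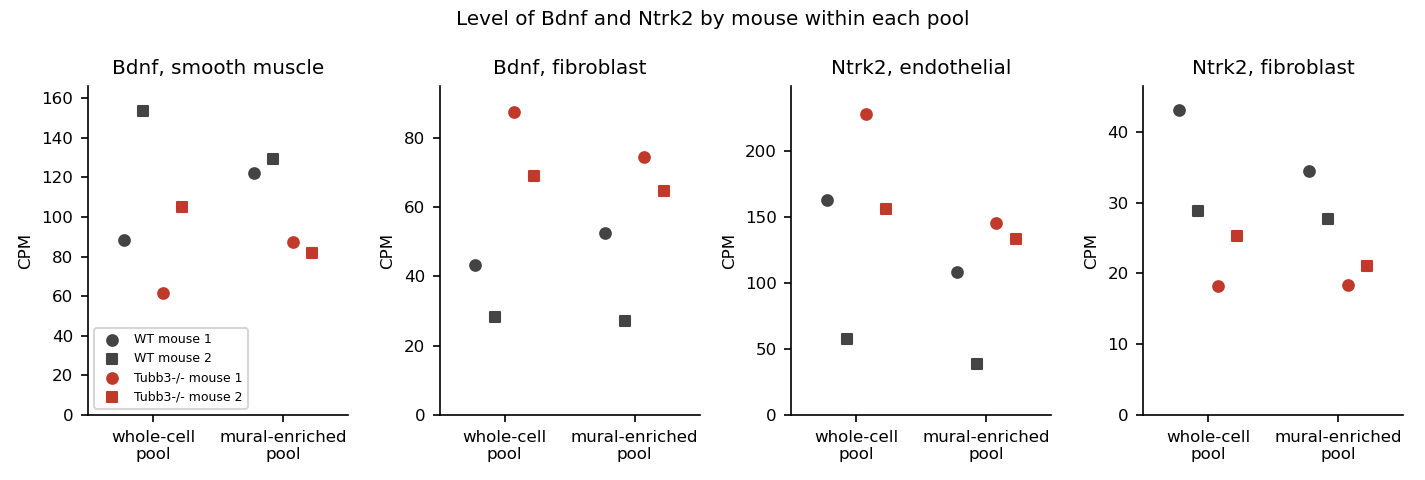
CPM of Bdnf in smooth muscle cells and fibroblasts and of Ntrk2 in endothelial cells and fibroblasts, by mouse within each of the 2 pools. Bdnf in fibroblasts separates the genotypes in both pools (highest WT value 52.4 CPM, lowest Tubb3-/- value 64.8 CPM), whereas Bdnf in smooth muscle cells separates them only in the mural-enriched pool.

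Ntrk2 in endothelial cells was higher in Tubb3-/- mice in mean, 182 ± 43.8 CPM against 103 ± 70.4 CPM in WT (SD, n = 2 mice each). The lower Tubb3-/- mouse (151 CPM, female) however lay just under the higher WT mouse (153 CPM, male). The log2 fold change was 0.87 ± 0.41 and did not pass the test (adjusted p = 0.371, with 0.921% of 13139 genes called). The log2 fold change was 1.80 without WT mouse 1, 0.27 without WT mouse 2, 0.58 without Tubb3-/- mouse 1 and 1.11 without Tubb3-/- mouse 2. It was called without a filter on low counts (0.90, adjusted p = 0.000651), a setting that called 895 of 21395 genes in these cells. With the replicate number as a block it was also called (0.99 ± 0.20, adjusted p = 0.0339), as were 553 of 13139 genes. The Tubb3-/- mouse was the higher of both same-numbered pairs. Over all alternatives the adjusted p ranged from 0.000651 to 0.999. The share of endothelial cells with an Ntrk2 UMI, after thinning to 2000 UMIs, was 19.6%, 9.98%, 28.1% and 22.4%, so that the lower Tubb3-/- share exceeded the higher WT share (exact permutation p = 0.33, two-sided, the smallest possible). In pericytes, at a median depth of 6678 UMIs against 7148 in endothelial cells, the share was 0% in each mouse. In the same endothelial cells the summed proliferation genes were at 43.4, 29.5, 198 and 164 CPM, all 3 of them called higher, and the summed lymphatic genes at 268, 245, 414 and 474 CPM, 2 of 4 called higher. The 5 aerocyte capillary genes summed to 862, 816, 597 and 587 CPM, lower in both Tubb3-/- mice, and the activated capillary genes Lrg1 and Fxyd5 to 671, 403, 1067 and 894 CPM, higher in both. Red blood cell genes ranged from 32.3 to 3800 CPM with no order by genotype. The summed Schwann cell genes, nearly all Scn7a, were at 1044, 613, 973 and 1017 CPM, with Sox10 and Cdh19 at most at 0.731 CPM in any mouse. The part of these in the Ntrk2 values was not tested.

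In fibroblasts Ntrk2 was lower in both Tubb3-/- mice (18.3 and 22.0 CPM) than in both WT mice (36.1 and 27.96 CPM). The log2 fold change of -0.69 ± 0.18 did not pass edgeR's test (adjusted p = 0.150). It passed that of DESeq2 (-0.69, adjusted p = 0.0356), which called 747 of 16014 genes in fibroblasts, where edgeR called 10. Without WT mouse 2 the log2 fold change was -0.88, and without WT mouse 1 it was -0.43. The adjusted p ranged up to 0.524 over the alternatives. Tubb3-/- mice were lower without overlap for 24.1% of the genes tested in fibroblasts. Smooth muscle cells, at 6.66, 4.002, 7.17 and 7.13 CPM, gave 0.33 ± 0.27 (adjusted p = 0.692). The difference in endothelial cells minus that in fibroblasts was 1.67 ± 0.38, with an unadjusted p of 0.000289 and an adjusted p of 0.131. Over all lineages together, 0 of the 6 members had a genotype difference that varied by lineage at an adjusted p under 0.05 in edgeR's test. Of all 17031 genes, 0.129% were called. At an unadjusted p under 0.05 in the same test, 3 members did (Ntrk2, Ntrk3 and Bdnf, at 0.0102, 0.0193 and 0.0276), a count without its share over all genes.

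No difference of Ntrk3, Ntf3 or Sort1 between genotypes passed the test in the lineages where it could be made, which leave out pericytes. Ntrk3 in smooth muscle was at 394 ± 10.4 CPM in WT and 349 ± 42.3 CPM in Tubb3-/- mice (-0.20 ± 0.10, adjusted p = 0.465). The genotypes did not overlap, as in the same direction for 17.3% of the genes tested there, but they did in the whole-cell pool, at 481, 303, 299.6 and 392.3 CPM. In mesothelial cells Ntrk3 gave 0.64 ± 0.31 (adjusted p = 0.444), with 0.20 to 1.11 when a mouse was left out (lowest without WT mouse 2, highest without WT mouse 1). In fibroblasts it gave 0.22 ± 0.17 (adjusted p = 0.515), with 0.0475 to 0.47 without the same mice. Ntf3 in smooth muscle was at 93.2 ± 3.27 CPM in WT and 83.1 ± 0.228 CPM in Tubb3-/- mice, also without overlap (-0.19 ± 0.08, adjusted p = 0.399, the same background of 17.3%). Sort1 had fold changes between -0.24 and -0.02 on the log2 scale in the 6 lineages tested.

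The rest of the pathway was read from lists chosen for it, over the 7 lineages. Of 27 Trk and p75NTR signalling genes (SHC, FRS, GAB and CRK adaptors, PLCγ1, and p75NTR partners), 0 were called in 152 tests by edgeR and 0 by DESeq2, with 15 at an unadjusted p under 0.05, and their median log2 fold change per lineage lay between -0.12 and 0.08. Of 14 genes that cleave or process proneurotrophins, 1 call was made in 60 tests, Pcsk5, a furin-like convertase, which rose in mesothelial cells (1.58 ± 0.21, adjusted p = 0.00888), with 19 at an unadjusted p under 0.05 and 2 called by DESeq2. Of 15 genes that MAPK signalling and activity induce, 2 calls were made in 87 tests, both in mesothelial cells, where the feedback inhibitors Spred1 (0.87 ± 0.18, adjusted p = 0.0469) and Spry4 (1.36 ± 0.28, adjusted p = 0.0494) rose, while DESeq2 called 8 of the 87 and 32 had an unadjusted p under 0.05. In mesothelial cells 1.5% of 11438 genes were called, and 2 proliferation genes (Mki67 and Top2a) rose beside them, the summed proliferation genes being at 24.4, 34.7, 117 and 89.0 CPM. Their part was not tested. The 7 other family genes gave 0 calls in 20 tests by edgeR and 0 by DESeq2, with 7 at an unadjusted p under 0.05. Over all genes tested, DESeq2 called 158 of 11438 in mesothelial cells. By lineage its calls ran from 1 of 4883 in pericytes to 747 of 16014 in fibroblasts. The counts at an unadjusted p have no share over all genes beside them here and are not read as a result about these lists.

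The endothelial cells with an Ntrk2 UMI after thinning were compared with those without, within each mouse, to see which vessel type genes they carried. The genes of the list are given by vessel type, more of them than the rule for named genes takes, a choice made after their values were seen. After thinning to 2000 UMIs there were 551 Ntrk2-positive cells, 84, 63, 229 and 175 per mouse, and 345 to 606 negative cells per mouse. Before thinning, 30.5%, 17.6%, 48.8% and 44.1% of endothelial cells held an Ntrk2 UMI, so the negative group includes cells that carry Ntrk2. Genes of aerocytes, veins and lymphatics were lower in the positive cells, and some of general capillaries and arteries higher. All 5 aerocyte (aCap) genes were lower, among them Ednrb, the endothelin receptor B, at 22.8 ± 17.7 CPM in positive against 165 ± 27.3 CPM in negative cells (SD, n = 4 mice; log2 fold -2.73 ± 0.26, adjusted p = 1.1e-09), the carbonic anhydrase gene Car4 (-1.32 ± 0.18), Apln (-2.27 ± 0.34) and Fibin (-2.55 ± 0.24). All 4 vein genes were lower, with the noradrenaline transporter gene Slc6a2 at -2.95 ± 0.31, and Ackr1, a venular chemokine receptor, was not seen in positive cells at all (0 UMIs against 66), which makes it at least 5.76-fold lower (3 UMIs over the 4 mice). All 4 lymphatic genes were lower, with Prox1, the master regulator of lymphatic identity, at -3.76 ± 0.67 and Mmrn1 at -3.34 ± 0.40. Of 4 general capillary (gCap) genes, Gpihbp1, which carries lipoprotein lipase to the capillary lumen (1114 against 815 CPM, log2 fold 0.50 ± 0.08, adjusted p = 1.86e-05), and Kit (533 against 383 CPM, 0.54 ± 0.10) were higher, whereas Plvap and Aplnr were not called. The arterial genes Gja4 (0.62 ± 0.12) and Efnb2 (0.35 ± 0.09) were also higher, whereas Gja5, another arterial gene, was at 15.2 against 34.6 CPM and was not called (-0.79 ± 0.34, adjusted p = 0.272). Each of these called genes moved in the same direction in 4 of 4 mice.

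**Figure D4:**
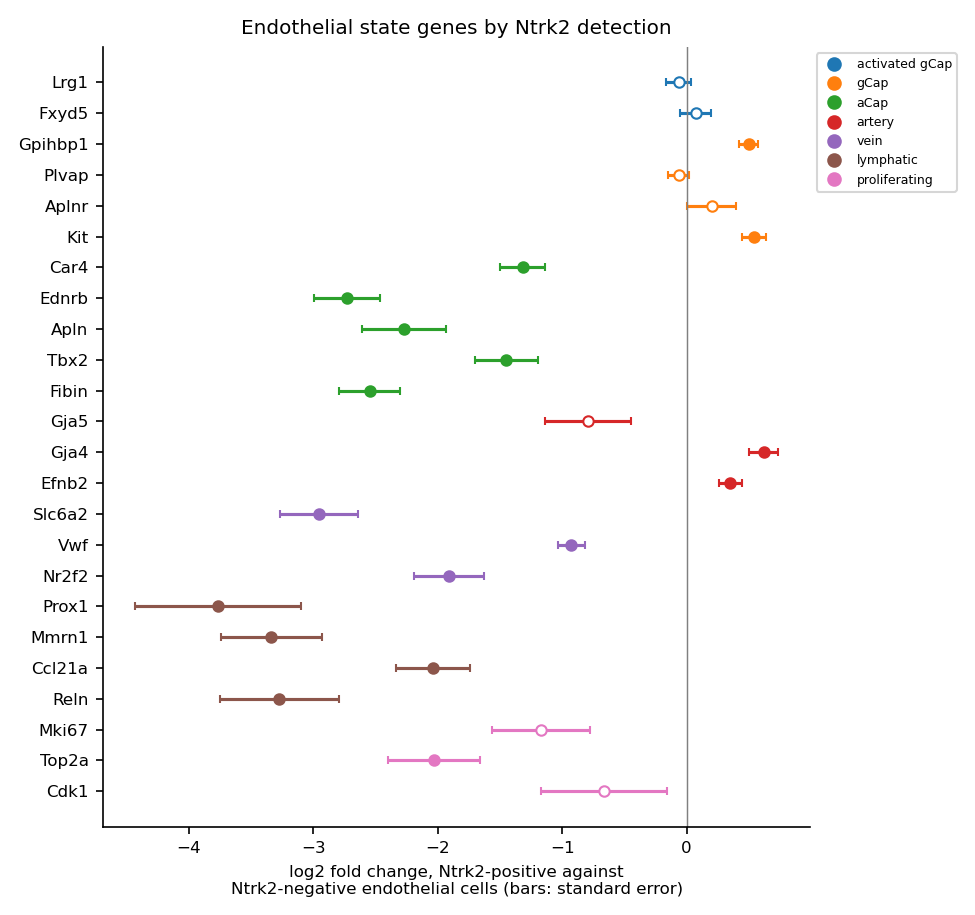
Log2 fold change of endothelial state genes between Ntrk2-positive and Ntrk2-negative endothelial cells, within mice. Points are edgeR estimates with the mouse as a block, bars standard errors, filled points an adjusted p under 0.05, and colours the vessel type. The aerocyte, vein and lymphatic genes sit left of 0 and Gpihbp1, Kit, Gja4 and Efnb2 right of it; Ackr1, with 0 UMIs in positive cells, is not drawn.

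Over all genes the split called 387 of 8167 (4.74%), 144 higher (1.76%) and 243 lower (2.98%). The 25 endothelial state genes tested had 4 higher and 14 lower calls and a median log2 fold of -1.32 (the same with Ackr1 at its bound) against -0.000212 over all genes tested. The study used Ntrk2 itself as a marker of activated general capillaries, and its other markers of that state, Lrg1 and Fxyd5, were not called, and the proliferation gene Top2a was lower (-2.03 ± 0.37, adjusted p = 0.000197). Among genes of at least 50 CPM, those with the largest rise were Fam13c (1.60 ± 0.18), Cdk19 (1.51 ± 0.11), Amd1 (1.31 ± 0.16), Slc6a6 (1.18 ± 0.14), Tiam1, a Rac exchange factor (1.14 ± 0.21), and Ankrd37 (1.10 ± 0.18). Those with the largest fall were Selp, the P-selectin of Weibel-Palade bodies (-3.14 ± 0.29), Slc6a2, Ednrb, Rgs6 (-2.67 ± 0.21), Fibin and the leukocyte adhesion gene Vcam1 (-2.43 ± 0.28). Of the MAPK-induced genes, Dusp6, a feedback phosphatase of ERK, was higher in positive cells (222 ± 64.7 against 146 ± 38.8 CPM, 0.63 ± 0.13, adjusted p = 0.000826) and the other 8 tested were not called. The 22 Trk and p75NTR signalling genes tested gave 0 calls by edgeR and by DESeq2, and 0 at an unadjusted p under 0.05. Scn7a, a sodium channel of the Schwann list, was also higher (0.74 ± 0.07). Of the processing genes, Pcsk5 was higher (0.72 ± 0.14), and Cpe (-2.34 ± 0.38) and Plat (-0.59 ± 0.15) were among those lower.

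Ntrk3-positive smooth muscle cells were compared with negative ones in the same way. Ntrk3 was detected in 49.6%, 46.8%, 43.0% and 45.8% of smooth muscle cells after thinning, 282 to 535 positive cells per mouse. The share was at most 1.82% in immune cells and 1.11% in endothelial cells. Before thinning, 85.2%, 83.0%, 85.8% and 83.4% of smooth muscle cells held an Ntrk3 UMI. The negative group thus includes cells that carry Ntrk3, and the split sets higher against lower detection. Both neurotrophin ligands were higher in the positive cells. Ntf3 was at 121 ± 17.8 CPM in positive and 78.0 ± 17.0 CPM in negative cells (SD, n = 4 mice; log2 fold 0.56 ± 0.12, adjusted p = 0.000347), and Bdnf at 121 ± 25.5 against 86.6 ± 26.3 CPM (0.51 ± 0.12, adjusted p = 0.000545), each in 4 of 4 mice. Sort1 (0.15 ± 0.14, adjusted p = 0.539) and Ntrk2 (-0.01 ± 0.41, adjusted p = 0.991) were not called. The smooth muscle genes are likewise given beyond the rule. Of 6 vascular genes, 4 were higher, Notch3, the mural cell Notch receptor (0.52 ± 0.08), Map3k7cl (0.67 ± 0.09), Cspg4 or NG2 (0.36 ± 0.09) and the soluble guanylate cyclase gene Gucy1a1 (0.33 ± 0.08), and Mustn1 was lower (-0.17 ± 0.05). The sixth, Rgs5, was at 17.5 against 27.7 CPM and was not called (-0.64 ± 0.24, adjusted p = 0.0579). Of 5 airway smooth muscle genes, 4 were lower, with the hedgehog-binding Hhip at 142 ± 39.9 against 469 ± 84.7 CPM (-1.76 ± 0.09, adjusted p = 2.13e-34), Actg2 (-0.49 ± 0.05), Lgr6 (-0.38 ± 0.10) and Des (-0.22 ± 0.05). The contractile genes Acta2, Tagln, Cnn1 and Myl9 had log2 folds of -0.39 to -0.30, and Smtn and Lmod1 were not called.

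**Figure D5:**
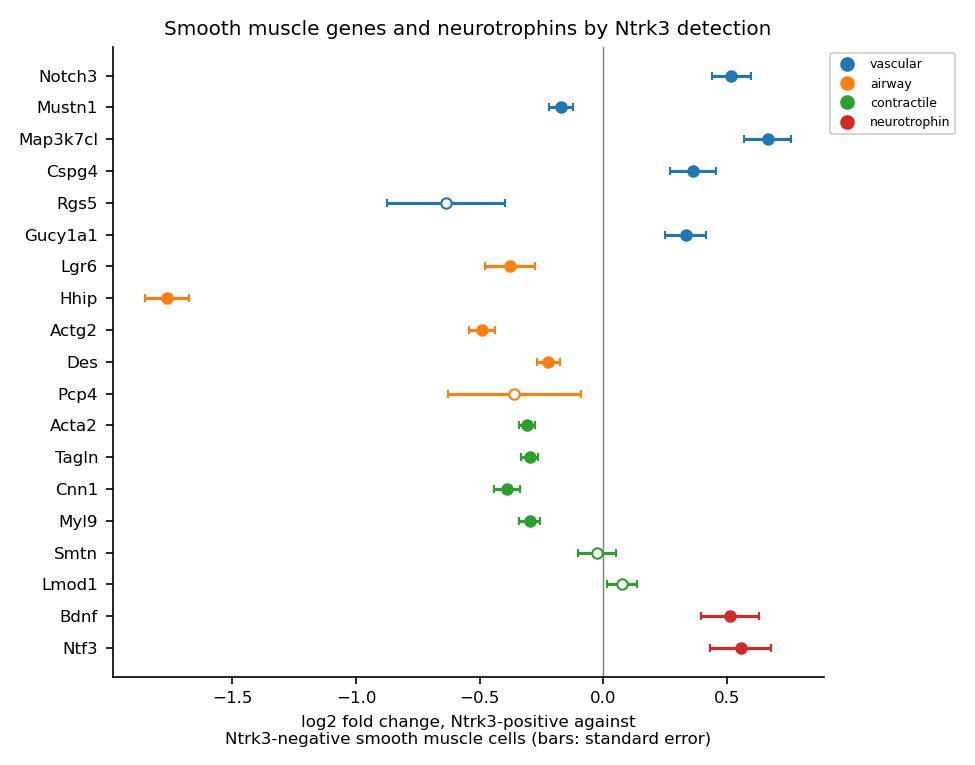
Log2 fold change of smooth muscle genes and of the 2 ligands between Ntrk3-positive and Ntrk3-negative smooth muscle cells, within mice. Points are edgeR estimates with the mouse as a block, bars standard errors, filled points an adjusted p under 0.05. Bdnf (0.51) and Ntf3 (0.56) lie with 4 vascular genes on the right, and 4 airway and 4 contractile genes lie on the left.

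This split called 1425 of 9352 genes (15.2%), 722 higher (7.72%) and 703 lower (7.52%), with a median log2 fold of -0.30 over the 17 smooth muscle genes against 0.00604 over all genes tested. The genes called higher were long and those called lower short: their median genomic spans were 125 and 8.69 kb, against 28.2 kb over all genes tested. Malat1, a nuclear RNA, was higher in positive cells (0.49 ± 0.03), and Ntrk3 itself spans 562 kb. Bdnf (52.3 kb) and Ntf3 (65.5 kb) are longer than the median of all genes tested and shorter than that of the genes called higher. The part of gene length and nuclear RNA in the split was not tested. By the rule of at least 50 CPM, the largest rises were Gm15261 (1.26 ± 0.14), Lrrtm3 (1.23 ± 0.11), Stac (1.17 ± 0.14), Gm30382 (1.04 ± 0.15), the glutamate receptor gene Gria1 (0.97 ± 0.11) and Ctnna3 (0.97 ± 0.05). The largest falls were Hhip, Tgfbi (-1.55 ± 0.16), the ATP-sensitive potassium channel gene Kcnj8 (-1.35 ± 0.17), Pcsk5 (-1.13 ± 0.10), Igf1 (-1.10 ± 0.11) and Sema3c (-1.06 ± 0.13). In the Ntrk2 split the spans of the genes called higher and lower were 62.3 and 82.1 kb against 28.9 kb over all genes tested, and Malat1 was lower in positive cells (-0.18 ± 0.05).

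Fibroblasts carried both Bdnf and Ntrk2, and the study describes a Cthrc1-expressing fibrotic state and a Scube2-expressing alveolar state among them. Cells were therefore split by a UMI of either gene after thinning, an addition made after the data were seen. These splits called 10.1% of 10748 genes (Cthrc1, 4.67% as higher) and 9.56% of 10482 genes (Scube2, 4.29% as higher and 5.27% as lower). Bdnf was higher in Cthrc1-positive fibroblasts, 95.3 ± 15.3 against 50.6 ± 19.9 CPM in negative ones (SD, n = 4 mice; 0.81 ± 0.19, adjusted p = 0.000873, 4 of 4 mice), while Ntrk2 gave 18.5 against 27.6 CPM (-0.75 ± 0.34, adjusted p = 0.185). Scube2-positive fibroblasts had less of both Trk receptors. Ntrk2 was at 8.91 ± 1.11 against 30.0 ± 7.92 CPM (-1.71 ± 0.29, adjusted p = 1.62e-05) and Ntrk3 at 4.71 ± 1.98 against 17.6 ± 3.94 CPM (-1.78 ± 0.39, adjusted p = 0.00104), each lower in 4 of 4 mice, and Sort1 was higher (148 ± 18.7 against 109 ± 13.0 CPM, 0.43 ± 0.11, adjusted p = 0.00319). In the same split Pi16, a gene of adventitial fibroblasts (-3.71 ± 0.16), the collagen-binding Dcn (-2.80 ± 0.07), the haemoglobin genes Hbb-bs (-3.94 ± 0.24) and Hba-a1 (-4.48 ± 0.42) and the glial gene S100b (-2.35 ± 0.58) were lower in 4 of 4 mice, and their part in the receptor values was not tested. Bdnf was not called by Scube2 (-0.02 ± 0.16, adjusted p = 0.970). The share of fibroblasts with a Cthrc1 UMI was 5.96% and 4.46% in WT and 13.3% and 10.4% in Tubb3-/- mice. The genotype difference of Bdnf was 0.81 ± 0.30 (adjusted p = 0.304) within Cthrc1-negative and 0.15 ± 0.33 (adjusted p = 0.947) within Cthrc1-positive fibroblasts. It was 0.74 ± 0.26 (adjusted p = 0.217) within Scube2-negative and 1.12 ± 0.31 (adjusted p = 0.125) within Scube2-positive fibroblasts.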

How the data were processed

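The 2 pools were processed by the authors with Cell Ranger 7.1.0 (per the labels) against mm10 with a Cre sequence, and the deposited values are UMI counts per gene and cell, split by mouse through the CellPlex tags. Cells with 200 to 7500 genes and at most 15% mitochondrial counts were kept, 777 doublets called by Scrublet in scanpy 1.11.5 were removed (0.982% of the whole-cell and 3.82% of the mural-enriched pool), and counts were summed per mouse and lineage over at least 10 cells. edgeR 4.0.16 (R 4.3.3) quasi-likelihood tests with TMM scaling, the default low-count filter and Benjamini-Hochberg adjustment over all genes tested were used. The genotype was fitted per lineage, and lineages and splits with the mouse as a block. Alternatives were other scaling, no filter, DESeq2 1.42.0, other cell limits, single pools and each mouse left out. In the splits, the text names the 6 genes that rose most and the 6 that fell most among those called at 50 CPM or more, and up to 4 examples per list. The scripts were tested on simulated data. The members and lists were chosen with earlier results of these data known.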

Additional observations from a re-analysis of the deposited data

How the results depend on the processing

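The call of Bdnf in smooth muscle cells kept its direction in every alternative run and was lost in the whole-cell pool alone, in the mural-enriched pool alone (-0.59, adjusted p = 0.0531) and without Tubb3-/- mouse 2. The number of members called between genotypes, 1, was 0 in either pool alone, 2 without a filter, with DESeq2 and with the replicate block, and 1 to 4 when a mouse was left out. The deviations of same-numbered mice had correlations from 0.0721 in mesothelial cells to 0.425 in fibroblasts, with 0.106 in endothelial cells. These correlations were not tested. With 2 pairs the replicate number cannot be told apart from the sex of the mice. With the replicate block Ntrk2 in endothelial cells was called (0.99, adjusted p = 0.0339, with 553 of 13139 genes called). Bdnf in smooth muscle remained called (adjusted p = 0.0108, with 531 of 13741 genes called). Members whose difference varied by lineage, 0, were 2 without a filter, 1 with 2 marker UMIs and 0 to 2 when a mouse was left out. Calls between lineages, 23, ranged from 22 to 24 without each mouse. The Ntrk2 split gave 141 calls with DESeq2, 158 without the mouse block, 751 after thinning to 4000 UMIs and 200 to 376 without each mouse (fewest without Tubb3-/- mouse 1). The Ntrk3 split gave 516 with DESeq2, 528 without the block and 951 to 1290 without each mouse. Of 257 single values under an alternative, 14 changed sign, none of them called: Bdnf in epithelial (whole-cell pool, 0.0946) and mesothelial cells (-0.19 to 0.42 without each mouse), Ntf3 in fibroblasts without Cthrc1 (0.19) or Scube2 (0.0423), Ntrk3 in immune cells (2 marker UMIs, 0.0408; -0.26 to 0.0321 without each mouse), and Sort1 in immune cells (mural-enriched pool, 0.17; -0.36 to 0.25), mesothelial cells (-0.24 to 0.17) and fibroblasts (whole-cell pool, 0.11; -0.25 to 0.11). The causes were not tested. Whole-cell pericytes, 26 cells, were too few to fit. In pericytes, with 148 cells, none of the members had enough UMIs for a genotype test. Of 200 changes of 1.5 on the log2 scale in simulated pericyte counts, 34.5% were recovered. With 2 mice per genotype, small differences were not detectable, and p-values rest on the spread between these mice.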

Other observations

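Cells without any lineage marker (1158 cells, median 6523 UMIs) held Bdnf at 66.9, 72.3, 56.1 and 65.6 CPM and Ntrk3 at 79.3, 53.4, 57.9 and 69.3 CPM, above all lineages but smooth muscle and, for Bdnf, mesothelial cells in mean. The same cells held Tagln at 670 to 1457 CPM, Col1a1 at 2204 to 6015 CPM and Dcn at 1767 to 2755 CPM. The cells matching several lineages held 35.2% (Ntrk2) to 43.2% (Sort1) of the UMIs of the 5 measurable members, beside 41.4% of all UMIs, and in them Bdnf was at 41.4, 36.1, 56.6 and 51.8 CPM, the Tubb3-/- values lying above the WT values.

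With pericytes taken as cells with at least 3 Higd1b UMIs whatever their Myh11, a definition added after the data were seen, Bdnf was at 35.7 to 124 CPM and Ntrk3 at 27.8 to 81.6 CPM, with overlapping genotypes, and 6 Ntrk2 UMIs were found. These cells held Acta2 at 1899 to 5326 CPM.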
